A study of Mus musculus with 12 samples.

Results

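Resting Langerhans cells (LCs) of the mouse paw epidermis were followed in single-cell RNA-seq libraries of 12 mice. They were chosen by measured values, the counts of unique molecular identifiers (UMIs) of a few genes in each cell, where a UMI stands for 1 captured transcript. A cell barcode was counted as a resting LC when it held at least 2 UMIs of Cd207 and at least 5 of Cd74, when Krt1, Krt10, Krt5 and Krt14 together made up less than 0.5% of its UMIs, when Ccl3 and Ccl4 together had fewer than 5 UMIs, when Ccr7 had 0 UMIs, and when the cycle genes Mki67, Top2a, Pclaf and Birc5 together had fewer than 2. Cells also had to hold 200 to 6000 genes and at most 5% mitochondrial UMIs. Of the 127755 cells within these limits on genes and mitochondrial UMIs, 2402 met the whole rule. Resting is the label of this rule, which sets no limit on other cytokine, stress or immediate early genes. The rule uses measured values, so the levels of its 13 genes describe the choice of the cells and were not tested. The limit on mitochondrial UMIs is also part of the rule. Mitochondrially encoded genes were therefore tested in the 2428 cells that met the other limits whatever their mitochondrial share, a setting added after seeing the data.

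LCs are the antigen-presenting cells that reside in the epidermis. They descend from macrophage precursors, renew themselves in place, and depend on TGF-beta from their surroundings and on signals through the CSF1 receptor. In the undisturbed state they are anchored to keratinocytes, sample antigen with their dendrites and store langerin, the product of Cd207, in Birbeck granules. When they mature they turn on the chemokine receptor Ccr7 and leave for the draining lymph node.

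All mice were wild-type C57BL/6J, were 6 to 8 weeks old when the diets began and 16 to 18 weeks old at harvest. For 10 weeks they received a regular diet (RD, 11% fat) or a high-fat diet (HFD, 42% fat), a model of painful diabetic neuropathy in which the study asked whether LCs respond to diet, and differently in male and female mice. Each sex had 3 mice on RD and 3 on HFD, with 1 library per mouse, made from the epidermis of the glabrous hind paw after digestion with dispase and TrypLE and without sorting. The file headers name Cell Ranger 6.1.0 for the male libraries and 7.2.0 for the female libraries, so sex and counting software cannot be told apart in anything below.

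The libraries held 134449247 to 194673581 UMIs each. The resting LCs of a mouse summed to between 465497 and 768904 UMIs in males and between 1068826 and 2096947 in females. The median resting LC held 2630 to 5411 UMIs in the male libraries and 5253 to 7113 in the female libraries. Shares of cells that hold a UMI of a gene are compared below in cells thinned to 2000 UMIs. This leaves out the 82 resting LCs with fewer (36 in male RD, 6 in male HFD, 19 in female RD and 21 in female HFD mice). In the 2320 thinned cells the median number of genes was 909 to 926 in males and 1091 to 1112 in females, so the difference in genes per cell was present at equal depth. Among 2400 distinct barcode sequences, 2 occurred in more than 1 library.

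Each step of the rule removed a countable set of barcodes. At least 2 Cd207 UMIs were present in 3456 cells, and all but 16 of these also had at least 5 Cd74 UMIs, which left 3440 LC barcodes. The limit on keratins removed 607 of them, the limit on Ccl3 and Ccl4 a further 109, the Ccr7 limit 136 and the limit on cycle genes 186. Few cells lay at most of the borders. At exactly 2 Cd207 UMIs there were 22 members, and 15 cells that met every other limit had 1. Between 0.4% and 0.5% keratin UMIs there were 3 members, with 2 cells between 0.5% and 0.6%. The chemokine limit had 20 members with 4 UMIs of Ccl3 and Ccl4 and 16 cells just outside with 5. The cycle limit was the least clear-cut, with 403 members at 1 UMI and 77 cells just outside at 2. For Ccr7, 50 cells stood outside with 1 UMI. The mitochondrial limit had 55 members between 4% and 5% and 9 cells between 5% and 6%.

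The 3 markers that the rule did not use were abundant in the resting LCs of every mouse. Levels are given as CPM, the UMIs of a gene relative to the summed UMIs of the resting LCs of a mouse on a common scale, corrected with edgeR's TMM factors unless stated otherwise. Epcam, an adhesion molecule of epithelia and LCs, was at 1148, 1182 and 1143 CPM in male RD mice and at 1396, 1163 and 1250 in male HFD mice. In females it was at 729, 776 and 801 CPM on RD and at 863, 815 and 978 on HFD. Epcam was thus high in all 12 libraries, and lower in each female than in each male. Csf1r, the receptor for CSF1 and IL-34, lay between 950 and 1167 CPM in males and between 424 and 594 in females. Mfge8, which bridges phosphatidylserine on dying cells to phagocytes, was the most abundant of these markers in each library at 3493 to 9568 CPM. With cells thinned to 2000 UMIs, the median library had a UMI of Mfge8 in 100% of resting LCs, of Epcam in 83.6% and of Csf1r in 75.5%. The same shares among keratinocytes of the median library, where any signal of Mfge8 and Csf1r gives the background, were 2.65%, 14.2% and 0.1%. The unthinned shares in resting LCs were 100%, 96.9% and 93.1%.

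Of the marker lists of other cell types, keratinocyte genes outside the rule had the highest sums. Next came the macrophage and monocyte list in males and the list of other dendritic cells in females. T cell markers summed to 14.6 to 49.7 CPM, 5 of the 16 were at 0 in all mice (Trbc1, Trdc, Tcrg-C1, Thy1 and Xcl1), and 0 cells held 2 or more T cell UMIs. Of 15 macrophage and monocyte markers, 6 were at 0 (Cd163, Lyve1, Ly6c2, Plac8, Ccr2 and F13a1). Their sum came mainly from the complement genes C1qa, C1qb and C1qc, at 687 to 928 CPM in male RD, 849 to 1181 in male HFD, 154 to 213 in female RD and 179 to 248 in female HFD mice. With cells thinned to 2000 UMIs, C1qa was found in 20.1% to 70.2% of the resting LCs of a mouse and in at most 0.1% of keratinocytes. The 10 markers of other dendritic cells were all detected and summed to 211 to 375 CPM, led by the transcription factor Irf4. Mast cell, melanocyte, Merkel cell, fibroblast, endothelial and erythrocyte lists had 5 of 7, 3 of 6, 4 of 6, 5 of 6, 3 of 5 and 2 of 5 members at 0. Their highest detected members were Kit at 12.4 to 69.2 CPM, Mitf at 3.85 to 98.0, Isl1 at up to 1.75, Postn at up to 5.81, Vwf at 3.91 to 27.6 and Alas2 at up to 1.28.

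The cells were low in keratinocyte transcripts but not without them. The 4 keratins of the rule made up 0.027% to 0.092% of the UMIs of the median cell, depending on the library. None of 22 other keratinocyte markers was at 0 in all mice, and their sum was 2178 to 5426 CPM in male RD, 2592 to 10470 in male HFD, 812 to 1740 in female RD and 709 to 1618 in female HFD mice. Among them Lor, the main protein of the cornified envelope, ranged from 391 to 6791 CPM in males and from 28.2 to 928 in females. Transcripts of the cornified layer made up 13.8% to 27.2% of the UMIs of 6 barcodes, 1 each in male RD 1 and 2, male HFD 1 and 2, female RD 3 and female HFD 2. These 6 barcodes held 8059 to 27187 UMIs, above the median of their libraries. In the remaining resting LCs the summed share was 0.0789% to 0.122% in males and 0.0117% to 0.0199% in females, against 1.18% to 1.43% and 0.408% to 0.560% in keratinocytes. Counts of calls by diet that change without these 6 cells are given both ways. Single genes are given from all resting LCs unless stated otherwise.

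Resting LCs were the largest class of LC barcodes in each of the 12 mice. There were 164, 287 and 93 in male RD mice, 104, 120 and 120 in male HFD mice, 235, 197 and 356 in female RD mice and 310, 223 and 193 in female HFD mice. As a share of LC barcodes this was 63.3%, 67.1% and 65.5% in male RD mice and 79.4%, 69.4% and 65.2% in male HFD mice. In females it was 73.7%, 65.4% and 77.4% on RD and 71.1%, 69.9% and 67.0% on HFD. The diets overlapped in both sexes. HFD minus RD was 6.03 percentage points in males (exact two-sided permutation test, p = 0.3) and -2.83 in females (p = 0.5). Over all 12 mice, where these opposite values were pooled, it was 1.60 points, within the spread between mice (exact two-sided permutation test with diets permuted within sex, p = 0.645, 0.9 after Benjamini-Hochberg adjustment over 12 tests of shares). It was -0.414 points without male HFD 1 and -0.0777 without female RD 2. The smallest p this design allows is 0.005 over both sexes and 0.1 within 1 sex.

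As a share of all filtered cells, resting LCs made up 1.40% ± 0.425 (SD, n = 3) in male RD, 1.42% ± 0.232 in male HFD, 2.36% ± 0.792 in female RD and 2.28% ± 0.318 in female HFD mice. The diets differed by -0.0334 percentage points, HFD minus RD (exact two-sided permutation test, p = 0.9). The female share ranged from 1.52% to 3.09% and the male share from 1.12% to 1.89%, a difference of 0.912 percentage points. This had an exact two-sided permutation p of 0.00866, which became 0.104 after adjustment over the 12 tests. Since the limits of the rule are counts and depth differed by sex, barcodes were also thinned to 2000 UMIs before the rule was applied, which left out the 1.64% to 4.39% of barcodes in male and 2.89% to 5.94% in female libraries with fewer UMIs. This gave a difference of 1.16 points (exact permutation p = 0.00649). Within RD the difference between the sexes was 0.961 points (p = 0.2) and within HFD 0.862 points (p = 0.1, the smallest that 3 mice against 3 can give in the exact permutation test). The share of LC barcodes that were resting differed by 2.45 points between the sexes (exact two-sided permutation test, p = 0.418).

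**Figure D1:**
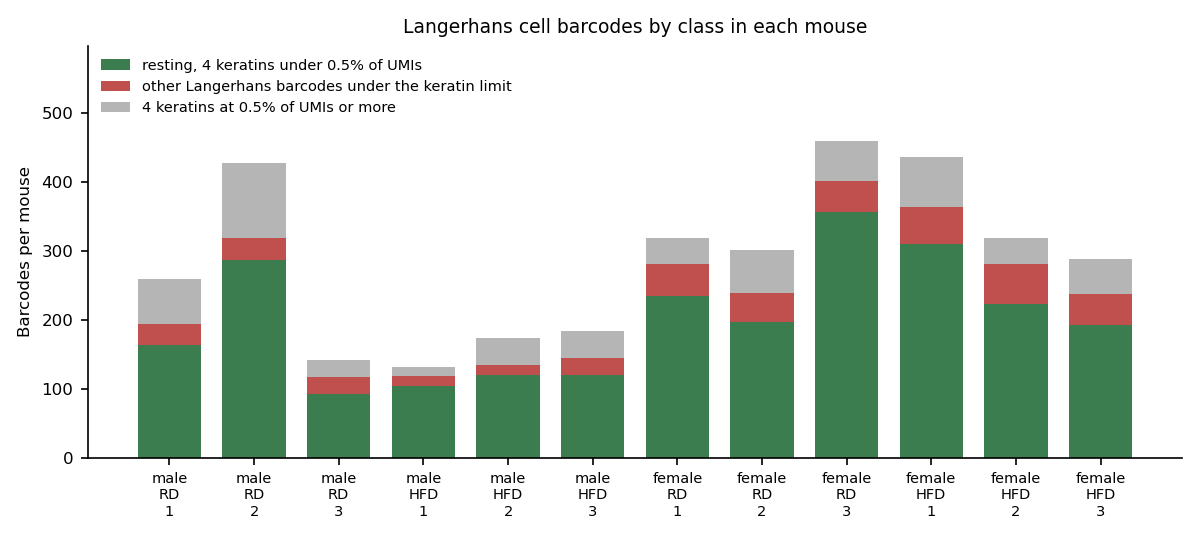
LC barcodes of each of the 12 mice, as stacked numbers of resting LCs (green), other LCs under the keratin limit (red) and LC barcodes with 0.5% or more keratin UMIs (gray). Resting LCs are the largest class in each mouse, from 93 in male RD 3 to 356 in female RD 3.

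The other LC classes were set beside the resting cells as a description, since the same counts defined them. The 92 chemokine-high cells (at least 5 UMIs of Ccl3 and Ccl4, Ccr7 at 0, cycle genes under 2) kept the markers of resting cells. In plain CPM, averaged over 12 mice, Epcam was at 1066 in them against 1005 in resting cells, Mfge8 at 5950 against 6370 and Csf1r at 623 against 741. Their level of the heat shock gene Hspa1a was 3391 against 1380 CPM. Without the 6 cornified cells among the resting, Klf2, a transcription factor of quiescent cells, was at 302 against 96.0 CPM, Dusp1, a phosphatase that limits MAP kinases, at 836 against 324, and Atf3, a stress-induced transcription factor, at 1666 against 686. Each of the 3 was higher in 11 of 12 mice. On the same basis Scin, which severs actin filaments, was lower in the chemokine-high cells of all 12 mice, at 185 against 535 CPM, and so was the costimulatory gene Cd80, at 89.8 against 185. These means rest on 5 to 11 chemokine-high cells per mouse.

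Proliferating LCs (186 cells) carried Stmn1, a regulator of microtubules in mitosis, at 854 CPM against 19.1 in resting cells, and Stmn1 was higher in all 12 mice. In the same cells Cd63, a tetraspanin of lysosomes, was at 563 against 1014 CPM, the leukotriene synthase gene Ltc4s at 343 against 506, and the signaling adaptor Tyrobp at 1160 against 1674, each lower in all 12 mice. Ccr7-positive LCs (141 cells, of which the males contributed 1 to 8 per mouse) held 477 CPM of Fscn1, an actin-bundling gene of mature dendritic cells, against 0.706 in resting cells. Their Ccl22, a chemokine that attracts regulatory T cells, stood at 3400 against 128 CPM and Ccl17, which shares its receptor, at 752 against 15.5. Resting cells were therefore nearly devoid of Fscn1 but did carry Ccl22. Compared with resting LCs without the 6 cornified cells, Fscn1 was higher in the Ccr7-positive cells of 9 of 12 mice and lower in 2. Ccl22 and Ccl17 were each higher in 10 and lower in 2. Mfge8 was at 7337 CPM in Ccr7-positive cells and Csf1r at 552.

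In the 607 keratin-holding LC barcodes the LC genes stood far lower. Csf1r was at 155 CPM against 741 in resting cells, H2-Ab1, a chain of MHC class II, at 2450 against 10690, and Mfge8 at 1575 against 6370. These barcodes had a median of 10010 to 21491.5 UMIs, above the median of the resting LCs in the same libraries. Keratinocytes held 0.314 CPM of Csf1r, 1.32 of H2-Ab1 and 11.7 of Mfge8. The galectin gene Lgals3 was the reverse case, with 1920 CPM in resting LCs and 2810 in keratinocytes.

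**Figure D2:**
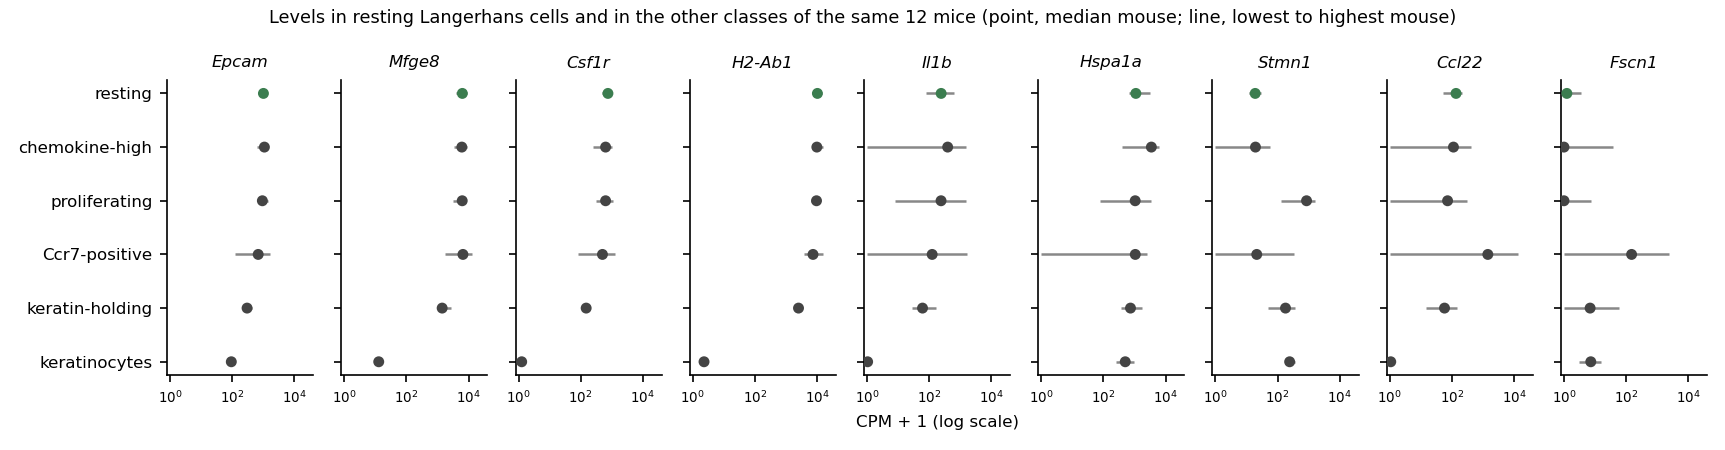
Levels of 9 genes in resting, chemokine-high, proliferating, Ccr7-positive and keratin-holding LCs and in keratinocytes, as CPM plus 1 on a log axis, with the median mouse as a point and the range over 12 mice as a line. Resting LCs stand beside the other LC classes for Epcam, Mfge8, Csf1r and H2-Ab1 and above the keratin-holding barcodes, Stmn1 is highest in proliferating cells, and Ccl22 and Fscn1 are highest in Ccr7-positive cells.

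Resting LCs were not uniform. In the thinned cells the ratio of variance to mean within a mouse had a median of 1.05 over 2912 genes, which is close to the counting error alone, and 99% of the genes stayed below 2.56. The neutrophil chemokine gene Cxcl2 had a ratio of 13.2 at a mean of 7.98 UMIs per cell. It was followed by the heat shock genes Hspa1a at 7.66 and Hspa1b at 5.75, the nuclear RNA Malat1 at 6.93, the cytokine gene Il1b at 5.72, the histone gene H3f3b at 5.26, and Fos and Jun, the partners of the AP-1 factor, at 5.02 and 4.24. Tmsb4x, which binds monomeric actin, had a ratio of 4.50, and the LIM-domain gene Crip1 of 3.96. Gm42418, a transcript that overlaps ribosomal RNA, had a ratio of 5.35. These ratios are medians over 12 mice, and for a few genes the sexes stood apart. The male and female medians were 8.30 and 2.08 for H3f3b, 7.98 and 2.24 for Jun, 7.98 and 3.25 for Fos, and 9.81 and 2.06 for Gm42418. For Cxcl2 they were 13.8 and 12.5 and for Il1b 5.98 and 5.22. Mean UMIs per thinned cell also differed, at 14.8 to 19.0 in males and 3.76 to 5.96 in females for H3f3b. For Gm42418 they were 59.1 to 113 and 6.84 to 9.81, and for Jun 1.75 to 3.37 and 0.306 to 0.5. The sexes' ratios were thus not taken at equal means. The highest 10% of cells held 23.9% to 28.1% of H3f3b UMIs in males and 21.8% to 28.1% in females, but 44.8% to 54.3% and 31.0% to 38.8% for Fos. The cornified genes Lor (25.8), Flg (13.7), Crct1 (10.3) and Calm4 (5.85) also ranked among the 15 highest. Without the 6 cornified cells their ratios were 1.04, 0.992, 0.995 and 1.07, so the excess spread of these 4 genes came from those cells.

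Some of the variable genes moved together from cell to cell. These are descriptions over cells that share a library, its depth and its handling. Hspa1a and Hspa1b, near-identical copies whose reads cannot be fully separated, had a median Pearson r of 0.749 over the 12 mice (range 0.549 to 0.874). Hspa1a and Jun had a median r of 0.455, and Fos and Jun of 0.453. Cxcl2 and Il1b had a median r of 0.176 and Tmsb4x and Crip1 of 0.231, both above 0 in 12 of 12 mice. Even at this depth 84.3% of resting LCs of the median library held a Cxcl2 UMI, against 1.1% of keratinocytes. An Il1b UMI was held by 16.1% to 35.7% of resting LCs in male and 6.59% to 10.4% in female libraries, against 0% of keratinocytes in the median library. Cells that met the limits of the rule thus still carried cytokine, heat shock and immediate early transcripts, and the label resting does not mean their absence.

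**Figure D3:**
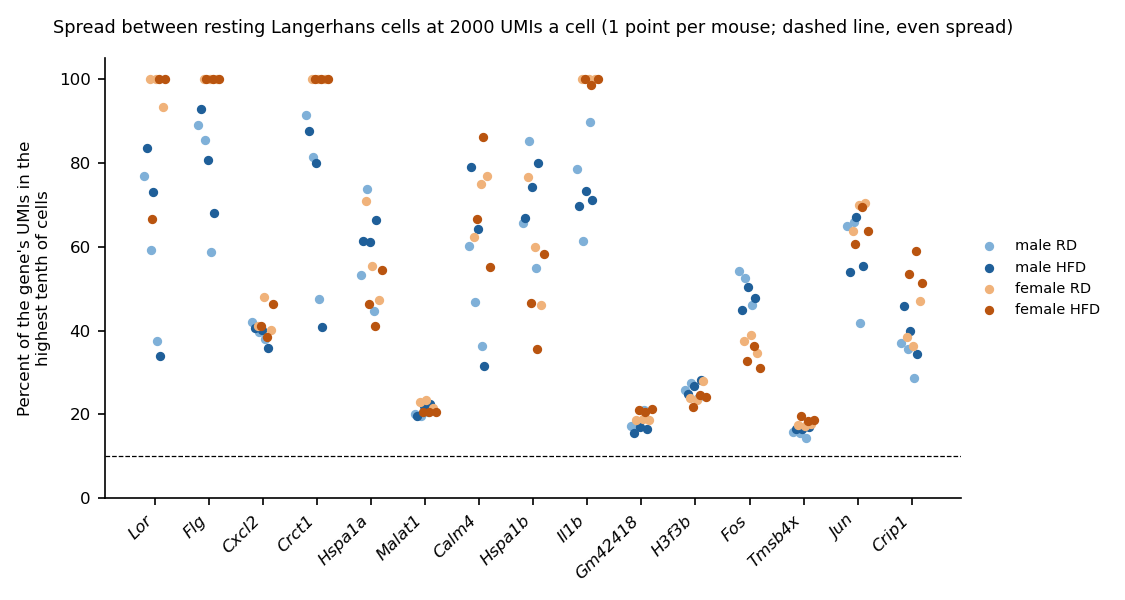
Percentage of a gene's UMIs that fell in the highest 10% of the resting LCs of a mouse, with each cell thinned to 2000 UMIs and 1 point per mouse, for the 15 most variable genes. An even spread would give 10% (dashed line). Cxcl2 lies at 35.9% to 48.1% in all mice and Tmsb4x at 14.4% to 19.5%, while values of 100% belong to genes that few cells of a mouse hold, such as Il1b in females.

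To ask how diet acted on resting LCs, edgeR's quasi-likelihood test was applied to the summed UMIs of each mouse over 7889 genes, and a Benjamini-Hochberg adjusted p below 0.05 counted as passing. Over both sexes 36 genes (0.456% of those tested) passed, 15 higher and 21 lower on HFD. Of the 15, 7 were mitochondrial genes, whose levels the rule itself limits, so that these 7 calls describe the chosen cells. Outside the mitochondrial genome 29 genes passed (0.368%), 8 higher and 21 lower. The genes that fell included the LC marker Mfge8, the actin-capping gene Capg, the galectin Lgals3 and the G protein subunit Gng10. By sex, 1 gene passed in males (0.0127%) and 62 in females (0.786%). The male call was mitochondrial, which left 0 of 7876 genes in edgeR's quasi-likelihood test, beside 664 with an unadjusted p below 0.05 and 6 called by DESeq2. Without the mitochondrial genes 57 passed in females (0.724%, 15 higher and 42 lower), among them 16 of the 29. Diets were apart, without overlap, in 986 of 7889 genes in males, 1451 in females and 145 in the same direction in both. Genes named for the largest changes were chosen among those without overlap, so the lack of overlap given for them adds no support.

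Mitochondrially encoded transcripts code for subunits of the respiratory chain and of ATP synthase. Since the rule caps their share per cell, the values and tests of these genes are from the 2428 cells chosen without the cap. There 7 of the 13 mitochondrial genes rose over both sexes, beside 0.420% of all 7862 genes called. mt-Cytb, the cytochrome b of complex III, was at 1237, 1169 and 1320 CPM in male RD mice and at 2302, 2279 and 2190 in male HFD mice. In females it was at 631, 706 and 661 CPM on RD and at 966, 1066 and 868 on HFD. All HFD mice of a sex lay above all RD mice of that sex. The difference over both sexes was 0.70 on the log2 scale (SE 0.067, edgeR's quasi-likelihood test, Benjamini-Hochberg adjusted p = 5.45e-05). In males alone it was 0.86 (SE 0.0952, edgeR adjusted p = 4.51e-04).

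mt-Co3, a subunit of complex IV, was at 4187, 4213 and 4428 CPM in male RD, 5583, 6011 and 5634 in male HFD, 1990, 2093 and 2074 in female RD and 2746, 2881 and 2558 in female HFD mice (log2 difference 0.42, SE 0.0489, edgeR adjusted p = 5.19e-04). It passed in males as well without the cap (0.43, edgeR adjusted p = 0.0399). mt-Atp6, a subunit of ATP synthase, was at 4513, 4292 and 4312 against 6327, 6358 and 6018 CPM in males and at 1978, 2197 and 2143 against 2652, 3756 and 2632 in females (0.51, SE 0.0751, edgeR adjusted p = 0.00321). Neither gene had overlapping diets within a sex. mt-Nd4 of complex I differed by 0.50 (SE 0.0768, edgeR adjusted p = 0.00351), mt-Nd2 by 0.52, mt-Nd3 by 0.62 and mt-Co2 by 0.30, with edgeR adjusted p of 0.0158, 0.0402 and 0.0139. The rise was not shared by each gene of the mitochondrial genome. mt-Co1 was at 8141, 7631 and 7370 CPM in male RD and 7593, 8023 and 6989 in male HFD mice, and at 2679, 2658 and 2945 against 2688, 2709 and 2886 in females, a log2 difference of -0.02 with overlapping diets. mt-Nd1 differed by 0.14 and did not pass.

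Over the 13 mitochondrial genes the median log2 difference without the cap was 0.38, with 11 above 0, beside a median of 0.01 over all genes tested there. In males the median was 0.33 and 2 mitochondrial genes passed, out of 2 calls in all (0.0254% of genes tested). In females the median was 0.52 and 5 passed, out of 68 calls in all (0.865%). Of 82 respiratory chain genes of the nucleus, tested in the resting LCs, 0 passed in edgeR's quasi-likelihood test, 62 lay below 0 and the median was -0.08. The mitochondrial share of UMIs without the cap was 2.40%, 2.33% and 2.38% in male RD, 2.90%, 3.06% and 2.92% in male HFD, 1.25%, 1.33% and 1.33% in female RD and 1.58%, 1.75% and 1.54% in female HFD mice. In keratinocytes of the same libraries, taken within the cap, mt-Cytb in plain CPM averaged 3098 (2894 to 3390) in male RD, 3515 (3346 to 3662) in male HFD, 2076 (1993 to 2234) in female RD and 2201 (2051 to 2370) in female HFD mice. Gm42418 in resting LCs was at 33610, 35350 and 36560 CPM in male RD and at 56060, 61030 and 42040 in male HFD mice, and at 3004 to 4248 and 2951 to 3672 in female RD and HFD mice. Whether these shifts in keratinocytes and in Gm42418 have a part in the mitochondrial result was not tested.

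**Figure D4:**
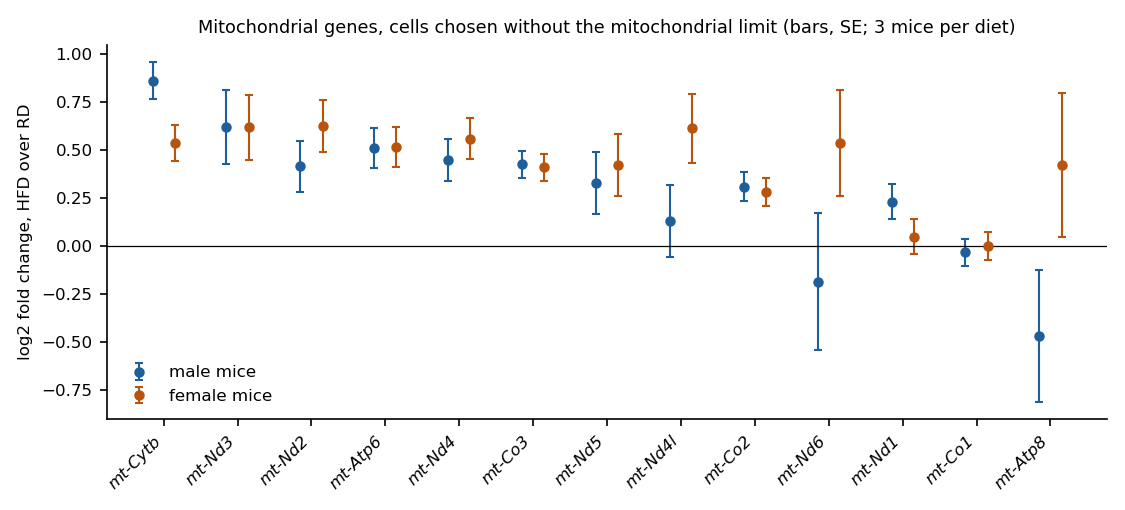
Log2 fold change, HFD over RD, of the 13 mitochondrially encoded genes in the 2428 cells chosen without the mitochondrial limit, in males (blue) and females (orange) with 3 mice per diet, where bars give the standard error. mt-Cytb lies at 0.86 in males and 0.54 in females, and mt-Co1 near 0 in both.

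Of the other genes that rose, H2-M2, a nonclassical MHC class I gene on chromosome 17 (37480851 to 37483552, GRCm38), changed most clearly. It was at 188, 228 and 261 CPM in male RD and 648, 359 and 561 in male HFD mice, and at 178, 150 and 189 against 480, 270 and 514 in females. The log2 difference was 1.25 (SE 0.163, edgeR's quasi-likelihood test, adjusted p = 0.00145). With cells thinned to 2000 UMIs, the mean share of cells with an H2-M2 UMI was 25.3% in male RD, 45.9% in male HFD, 24.3% in female RD and 47.2% in female HFD mice, and at most 0.4% in keratinocytes. H2-M2 was therefore found in more cells on HFD in both sexes. The keratinocyte share was far below the level in either diet, in a class chosen to hold no UMI of Cd207 or Cd74.

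Mmp9, a gelatinase that degrades the basement membrane (chromosome 2, 164940780 to 164955850), was at 14.02, 23.2 and 4.79 CPM in male RD and 71.1, 58.5 and 35.8 in male HFD mice, and at 29.5, 9.96 and 28.6 against 64.2, 53.9 and 56.0 in females (1.56, SE 0.256, edgeR adjusted p = 0.00758). Ifitm2, an interferon-inducible membrane protein that restricts viral entry, was at 112, 148 and 55.1 against 221, 205 and 199 CPM in males and at 38.4, 38.2 and 69.2 against 150, 115 and 80.7 in females (1.08, edgeR adjusted p = 0.0188). P2rx2, an ATP-gated cation channel best known in sensory neurons, was at 91.1, 103 and 86.3 against 167, 127 and 115 CPM in males and at 33.4, 26.6 and 30.3 against 47.3, 48.3 and 73.4 in females (0.70, edgeR adjusted p = 0.0265). HFD and RD mice of a sex did not overlap for any of the 3. Gabbr1, a subunit of the GABA-B receptor, rose by 0.80, H2-M5, another nonclassical MHC class I gene, by 0.88, Serpind1, the inhibitor of thrombin known as heparin cofactor, by 0.69, and Camk1, a calmodulin-dependent kinase, by 0.44 on the log2 scale, with edgeR adjusted p of 0.0283, 0.0292, 0.0426 and 0.0443.

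Mfge8 was the LC marker that fell. It was at 9151, 9568 and 8285 CPM in male RD and 6203, 6532 and 7309 in male HFD mice, and at 6344, 7310 and 5246 against 3767, 4673 and 3493 in females, without overlap between diets in either sex (-0.55, SE 0.0815, edgeR's quasi-likelihood test, adjusted p = 0.00359). Gng10, a gamma subunit of heterotrimeric G proteins (chromosome 4, 59035088 to 59041903), was at 57.8, 71.1 and 64.7 against 28.8, 35.5 and 11.9 CPM in males and at 54.0, 58.1 and 52.9 against 20.8, 30.9 and 22.5 in females (-1.25, SE 0.170, edgeR adjusted p = 0.00198). Celsr1, a cadherin of planar cell polarity, was at 68.3, 63.9 and 71.9 against 30.8, 29.2 and 35.8 CPM in males and at 190, 208 and 147 against 81.6, 108 and 121 in females (-0.95, SE 0.140, edgeR adjusted p = 0.00359). Both fell in each sex with no overlap between diets.

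Capg, which caps the barbed ends of actin filaments, was at 133, 107 and 132 against 46.2, 41.8 and 69.6 CPM in males and at 57.9, 88.9 and 73.0 against 48.6, 39.3 and 40.7 in females (-0.99, SE 0.137, edgeR adjusted p = 0.00225). Tmsb4x fell by 0.33 on the log2 scale (SE 0.0555, edgeR adjusted p = 0.00821). Crip1 was at 1745, 1526 and 1428 CPM in male RD and 1223, 1149 and 1485 in male HFD mice, which overlapped, and at 1300, 1224 and 955 against 653, 508 and 440 in females (-0.70, SE 0.105, edgeR adjusted p = 0.00359). Avil, an actin-bundling gene related to villin, was at 8.76, 8.71 and 9.59 CPM in male RD mice, at 1.92, 0 and 0 in male HFD mice, at 11.1, 25.7 and 15.4 in female RD and at 5.64, 4.49 and 6.54 in female HFD mice (edgeR adjusted p = 0.0283). The Avil call was kept in 13 of the 21 alternative settings that tested it. Tiam1, an exchange factor for the GTPase Rac, fell by 0.56 and Rapgef2, an exchange factor for Rap, by 0.73. Their calls were kept in 11 and 15 of 25 alternative settings, and Tiam1 did not pass without the cornified cells. These 6 genes were set side by side after their values were seen, and no list of cytoskeleton genes was tested.

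Lgals3, a secreted lectin, was at 3173, 2418 and 2622 against 1805, 1794 and 1811 CPM in males and at 1854, 2117 and 1725 against 1270, 1642 and 1156 in females (-0.54, SE 0.0884, edgeR adjusted p = 0.0072). Tnip3, a brake on NF-kB signaling, was at 217, 125 and 93.5 against 90.4, 87.7 and 77.5 CPM in males and at 47.3, 36.5 and 41.8 against 24.3, 21.9 and 23.3 in females (-0.82, edgeR adjusted p = 0.0319). Diets did not overlap within a sex for either gene. Slc15a3, a lysosomal peptide transporter, fell by 0.60, Fgl2, a fibrinogen-like immune regulator, by 0.70, Srgn, the core protein of secretory granules, by 0.70, the costimulatory receptor Tnfrsf9 by 0.52, the ATP-release channel Panx1 by 0.76 and the histone demethylase Kdm4a by 0.81. Mvb12b of the endosomal sorting machinery fell by 1.29, Tmem154 by 0.67 and the purine salvage enzyme Aprt by 0.46. The calls were kept in 12 of 23 alternative settings for Mvb12b, and of 25 in 9 for Tmem154, 10 for Aprt and 12 for Panx1. Of the same 25, Tnfrsf9 kept its call in 13, Tnip3 in 14, and Srgn and Kdm4a in 16 each. Piezo1, a mechanically gated ion channel, was at 8.76, 7.26 and 7.19 CPM in male RD mice and at 0 in all 3 male HFD mice. Its female values were 14.5, 14.1 and 13.7 on RD and 9.55, 14.03 and 15.3 on HFD, which overlapped, and the call over both sexes was lost in 19 of 23 alternative settings.

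**Figure D5:**
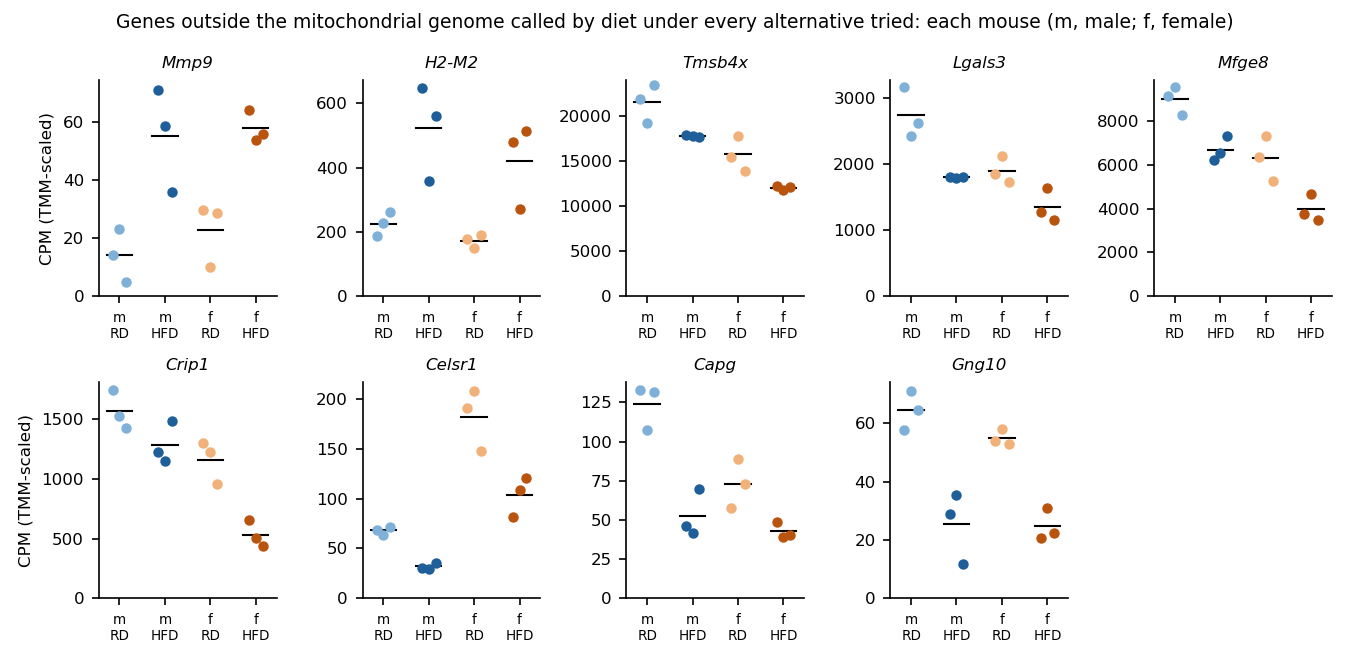
Levels in resting LCs, in TMM-scaled CPM with 1 point per mouse and lines at the group means, of the 9 genes outside the mitochondrial genome that passed over both sexes in each alternative tried. H2-M2 lies at 188 to 261 CPM in male RD and 359 to 648 in male HFD mice, and Mfge8 is lower on HFD in both sexes.

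Of the 29 genes outside the mitochondrial genome, 9 passed in each of 25 alternative settings (H2-M2, Mmp9, Mfge8, Capg, Gng10, Celsr1, Crip1, Lgals3 and Tmsb4x). The others kept their call in 4 (Piezo1) to 24 (Slc15a3) settings. All 29 kept their sign in the settings in which they were tested, 21 to 25 of them per gene. Among these settings, leaving out cells with 2 or more T cell UMIs removed no cell, so it kept each call by construction. A limit of at least 500 genes per cell also kept all 29. The number of these calls depended on single libraries. It was 12 without male HFD 1, 13 without female RD 1, 14 without female RD 2, 16 without female HFD 1 and 17 without either male HFD 3 or male RD 1, while it was 58 without the 6 cornified cells, a setting chosen after seeing the data.

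Female mice had more calls than males. Their sums also held more UMIs, and at equal depth per mouse 11 genes passed in females and 1 in males, mitochondrial genes included. The direct test of a different response to diet passed for no gene. In edgeR's quasi-likelihood test of the interaction 0 of 7889 genes (0%) passed, 557 had an unadjusted p below 0.05, and DESeq2 called 1. The calls in females included Irf8, a transcription factor of dendritic cells and macrophages, at 194, 157 and 150 CPM on RD and 94.2, 114 and 91.6 on HFD (-0.74, edgeR adjusted p = 0.0195). In males Irf8 was at 223, 228 and 259 against 198, 242 and 209 CPM, with overlap. Ptgs2, the inducible cyclooxygenase, was at 77.3, 53.1 and 37.6 against 14.8, 36.5 and 12.4 CPM in females (-1.38, edgeR adjusted p = 0.0479) and at 107, 69.7 and 74.3 against 88.5, 96.1 and 107 in males. Both genes were separated by diet in females, as were 1451 of all 7889 genes, and overlapped in males.

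Among the largest rises in females, the scaffold gene Dlg2 was at 6.12, 7.47 and 8.11 CPM on RD and 19.5, 32.6 and 24.7 on HFD (1.79, edgeR adjusted p = 0.0145). Scn3a, a voltage-gated sodium channel, was at 30.1, 13.3 and 36.7 against 101, 42.1 and 66.9 CPM (1.33, edgeR adjusted p = 0.0495). Tmem26 rose by 1.52, Hikeshi, which carries Hsp70 into the nucleus, by 1.07, the mitochondrial peptidase gene Immp2l by 0.96, the transcription factor gene Sox5 by 0.93 and Shisa5 by 0.90. A4galt, which makes globotriaosylceramide, was at 46.2, 38.2 and 40.1 against 15.2, 11.2 and 17.4 CPM (-1.52, edgeR adjusted p = 0.00914). Tspan18, Gm6209, the sialyltransferase gene St3gal3, the adhesion receptor gene Adgre5, the pyrophosphatase gene Ppa1 and the growth factor gene Pdgfb fell by 1.32, 1.28, 1.22, 1.22, 1.22 and 1.22. The C-type lectin receptor gene Klrb1b fell by 0.69 (edgeR adjusted p = 0.0341). The female count, mitochondrial genes included, rested on single libraries, with 0 calls without female RD 1 (674 at an unadjusted p below 0.05), 2 without female RD 2, 3 without female HFD 1 and 28 without female HFD 3. It was 11 at equal depth per mouse and 126 without the cornified cells.

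In males the genes with the lowest p outside the mitochondrial genome did not pass. They were Capg with a log2 difference of -1.23 (edgeR adjusted p = 0.0642), H2-M2 with 1.22 (0.124) and the histone gene Hist1h1e with 1.04 (0.124). Outside the mitochondrial genome the male count was 22 without male HFD 3, 3 without female HFD 2 and 4 without the cornified cells. For the interaction the lowest p belonged to Dmkn, a keratinocyte gene, at 445, 364 and 333 against 860, 739 and 421 CPM in males and 179, 213 and 197 against 127, 142 and 119 in females, with a log2 difference of 1.42 between the sexes' responses (edgeR adjusted p = 0.439). Klrb1b had 1.06 (0.439), Wfdc17 3.16 (0.439) and Manba 3.92 (0.470).

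Genes named by the study for LCs were also read in resting cells alone. Plxna1, a semaphorin receptor, was at 50.8, 65.3 and 67.1 CPM in male RD and 80.8, 89.8 and 87.5 in male HFD mice, and at 50.1, 34.0 and 44.4 against 53.4, 45.5 and 55.2 in females. The male difference of 0.50 had an edgeR adjusted p of 0.51. The 3 male HFD mice lay above the 3 male RD mice, beside 986 of 7889 genes with diets apart in males and 1451 in females. Plxnb2 was at 29.8, 55.2 and 47.9 against 53.8, 56.4 and 73.6 CPM in males, with overlap (0.46, edgeR adjusted p = 0.608), and at 30.6, 29.1 and 33.3 against 25.2, 26.4 and 23.3 in females, without overlap (-0.32, edgeR adjusted p = 0.564). It was lower in females than in males by a log2 difference of -0.90 (edgeR adjusted p = 4.99e-05), and the sexes' responses to diet differed by 0.78 (edgeR adjusted p = 0.640). Ccl2, a monocyte chemokine, was at 57.8, 24.7 and 93.5 against 67.3, 18.8 and 51.7 CPM in males, with overlap, and at 1.67, 1.66 and 2.56 against 1.74, 8.98 and 9.45 in females. Ramp1, a subunit of the CGRP receptor, was at 179, 178 and 230 against 173, 155 and 121 CPM in males and at 29.5, 29.9 and 19.6 against 36.0, 41.5 and 73.4 in females, with a log2 difference of -1.30 between the sexes' responses (edgeR adjusted p = 0.527).

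Read by function over both sexes, most gene groups of resting LCs held few or no called genes, beside 0.456% of all genes. LC identity genes had 1 lower (Mfge8) of 21 tested, with a median log2 difference of -0.10. MHC class II presentation had 0 of 14 (median 0.05), MHC class I 1 higher (H2-M2) of 19 (0.07), pattern receptors and lectins 0 of 10 (-0.14), niche receptors and TGF-beta signaling 0 of 14 (-0.09), uptake of dying cells and Fc receptors 1 lower (Mfge8) of 5 (-0.05), and lysosome genes 0 of 25 (-0.02). For H2-Ab1 the log2 difference was -0.04 (SE 0.0491), with overlapping diets in both sexes. Cytokines and chemokines had 0 of 14 (0.22), their receptors 0 of 20 (-0.02), NF-kB targets 1 lower (Tnip3) of 20 (0.04), immediate early genes 0 of 26 (0.17), interferon-stimulated genes 1 higher (Ifitm2) of 11 (0.01), costimulation and checkpoint genes 1 lower (Lgals3) of 14 (-0.03), the migration program 1 higher (Mmp9) of 12 (0.08), and axon guidance and neuronal receptors 1 higher (P2rx2) of 24 (0.05). Metabolic groups had no calls, with 0 of 33 in lipid handling (0.03), 0 of 23 in cholesterol synthesis (-0.24), 0 of 22 in glycolysis and glucose uptake (-0.08) and 0 of 13 in eicosanoid synthesis (0.14). Adhesion genes had 0 of 17 (0.04) and cycle genes outside the rule 0 of 13 (0.10). None of the genes tested in the other cell types' marker lists passed.

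Several groups without a call lay mostly on 1 side of 0. Of 82 cytosolic ribosomal protein genes 80 lay below 0 over both sexes, with a median of -0.13 (male 82 below and -0.16, female 70 below and -0.09). Of 13 heat shock genes 13 lay above 0 in females with a median of 0.48, and 11 lay below 0 in males with a median of -0.21. Hspa1a was at 1482, 729 and 1275 against 1217, 908 and 843 CPM in males and at 771, 872 and 1875 against 1545, 2895 and 1691 in females, with overlap in both sexes. In females 21 of 26 immediate early genes (median 0.26), 11 of 14 cytokines and chemokines (0.43) and 11 of 13 further cycle genes (0.12) lay above 0, and 20 of 23 cholesterol synthesis genes lay below it (-0.07). In males 18 of 22 glycolysis genes lay below 0 (-0.16). No ribosomal or heat shock gene passed in edgeR's quasi-likelihood test in either sex or in the interaction.

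Female and male resting LCs differed in most of what was measured. Of 7889 genes 4880 (61.9%) passed, 2509 higher in females (31.8%) and 2371 lower (30.1%). The sex-linked genes matched the labels, with Xist at 0 CPM in each male and 551 to 783 in females, and Eif2s3y at 54.3 to 91.1 in males and 0 in females. The direction followed gene span, which was read from the annotation. Among 889 genes of up to 5 kb, 5.06% were higher and 68.8% lower in females, and among 1078 genes over 100 kb 75.6% were higher and 4.55% lower, with a median log2 difference of -0.74 and 1.19. The groups below are therefore given with the median span of their tested genes.

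LC identity genes, with a median span of 31.6 kb, had 4 higher (Zeb2, Tgfbr1, Runx3 and Adgre1) and 12 lower of 21 in females, with a median of -0.56. Epcam differed by -0.56 and Mfge8 by -0.63. Csf1r, at 424 to 594 CPM in females and 950 to 1167 in males, differed by -1.06. Tgfbr1, a receptor for the TGF-beta that LCs require, was at 35.0 to 59.6 CPM in males and 59.0 to 103 in females, and Runx3, a transcription factor required for LC development, at 249 to 299 against 253 to 387. MHC class II genes had 0 higher and 10 lower of 14 (median -0.63, span 13.6 kb), MHC class I genes 0 and 14 of 19 (-0.75, span 5.21 kb), and cytokines and chemokines 0 and 9 of 14 (-0.85, span 2.62 kb). Immediate early genes had 3 and 18 of 26 (-0.98, span 5.07 kb), ribosomal protein genes 0 and 80 of 82 (-0.85, span 3.27 kb) and mitochondrial genes, without the cap, 1 and 12 of 13 (-1.07, span 0.784 kb). Most of these groups lie in the short spans in which lower calls prevail over all genes. Keratinocyte markers outside the rule had 0 higher and 16 lower of 19 (-1.37, span 4.398 kb), and C1qa, C1qb and C1qc were lower as well.

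Alcam, an adhesion molecule for CD6 on T cells, was at 189 to 260 CPM in males and 1352 to 1686 in females (log2 difference 2.72). The spans of single genes are not given for the sex comparison, so their differences are not set apart from the trend with gene span. Il1b was at 345, 704 and 321 CPM in male RD, 681, 558 and 672 in male HFD, 87.9, 70.6 and 70.9 in female RD and 115, 176 and 153 in female HFD mice (-2.35). P2rx2 was lower in females by a log2 difference of -1.47. H2-M2 also lay lower in females, as most class I genes did, but did not pass between the sexes (-0.35, edgeR's quasi-likelihood test, adjusted p = 0.07). Its difference from the other class I genes was not tested. Whether any of these differences is one of sex or of counting software cannot be told apart.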

How the data were processed

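The authors deposited raw UMI counts per gene and barcode for each mouse, and per the file headers Cell Ranger called the barcodes. Cell Ranger 7.2.0, Seurat 5.0.0 and GRCm38 stand in the submitters' processing notes, while the headers give 6.1.0 for males. Whether introns were counted is not given in the sources used here. Cells were chosen by the rule and no doublet caller was run. UMIs were summed per mouse and compared with edgeR 4.0.16 (R 4.3.3, limma 3.58.1; TMM, filterByExpr, quasi-likelihood test over the 4 groups, 8 residual degrees of freedom), without the 13 genes of the rule. Counts of calls in the resting LCs include mitochondrial genes unless stated, and the tests quoted for these genes are from cells chosen without the mitochondrial limit. DESeq2 1.42.0 was an alternative. Other steps used Python 3.11.15, numpy 2.4.6, pandas 2.3.3, scipy 1.17.1 and matplotlib 3.10.9. In simulated data of this design the test recovered 83% of 2-fold and 93% of 4-fold changes over both sexes. The simulation gave all genes 1 shared spread (biological coefficient of variation 0.152) around a mean over all mice. Its rates need not hold for genes that vary more. Replicate numbers are labels only: deviations of same-numbered mice correlated at -0.29 to 0.17, above 0.1 in 4 of 18 pairs. Libraries are labelled as separate replicates, and p-values measure the spread between them.

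The genes named are the 5 markers, members of functional lists, in each comparison the 10 genes higher and 10 lower with the largest change among those past 0.05 whose groups do not overlap, the 5 lowest p where under 5 genes passed, and the 15 most variable genes. For the sex comparison members of the lists and sex-linked genes are given. Genes outside this rule were named after their values were seen. A gene that the rule names for the interaction is not reported here. The members and lists were chosen with earlier results of these data known.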

Additional observations from a re-analysis of the deposited data

Results flagged for a closer look

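Of 46 groups of mice examined, 5 held a single mouse far from the others. The groups covered 23 items: genes named in the sex comparison, the shares of resting LCs and their median UMIs. A chance rate of about 1 in 20 groups is for normally distributed values, and does not hold for genes at 0 in most mice of a group. The Y-linked gene Ddx3y was at 2.49 CPM in female RD 2 and at 0 in the other female mice. Gm48678 was at 1.92 CPM in male HFD 1 and Maml2, a coactivator of Notch, at 1.99 CPM in male HFD 3, and both were at 0 in the other males. Mir142hg, the host gene of a microRNA of blood cells, was at 0 in male HFD 3 and at 4.18 to 5.81 CPM in the other males. Gm20732 was at 39.3 CPM in female RD 3, apart from the other females. Values of 1 to 3 CPM in these libraries are single UMIs or a few of them.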

How the results depend on the processing

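In simulated data of the same depth, with 1 spread shared by all genes, 49% of 2-fold changes were recovered in the male comparison. The rate was 73% in the female comparison and 24% in the interaction, so smaller differences may be missed. Diet calls over both sexes (36) were 69 with DESeq2, 181 without a filter on low counts and 65 without the cornified cells, a setting added after seeing the data, and 16 to 40 when single mice were left out. Male calls (1) were 8 with DESeq2, 106 without the filter, 4 in cells thinned to 2000 UMIs, 6 without the cornified cells, 2 with at most 10% or with any share of mitochondrial UMIs, settings added after seeing the data, and 1 to 24 with mice left out. Female calls (62) were 222 without the filter, 40 with keratins under 1%, 11 at equal depth per mouse, 126 without the cornified cells and 0 to 75 with mice left out, and the share of higher genes moved from 32.3% to 45.9% with DESeq2, 48.3% in thinned cells and 46.0% without the cornified cells. Interaction calls (0) were 1 with DESeq2, 70 without the filter and 0 to 4 with mice left out. Calls by sex (4880) ranged from 3322 in thinned cells to 5701 without the filter, where 61.7% were higher against 51.4%, and from 4650 to 4971 with mice left out. With the replicate block, calls were 10 in males, 74 in females, 31 over both sexes, 2 for the interaction and 4828 by sex. Samples share a number and no stated batch, so the block tests no pairing of the design. The share of LC barcodes by diet turned to -0.414 percentage points without male HFD 1 and -0.0777 without female RD 2 (range -0.414 to 3.13). The share of all cells by diet turned to 0.0341 in thinned cells, 0.0887 without male RD 2, 0.0172 without male HFD 3, 0.149 without female RD 3 and 0.0548 without female HFD 3 (range -0.244 to 0.149), and none of these passed a test. The cause of these shifts was not tested. For named genes over both sexes, 676 of the recomputed values kept their side of the threshold and 216 lost it, for females 581 and 190, and for males 150 kept it while 32 passed newly.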

Other observations

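Neighboring genes were among those that differed by diet over both sexes. H2-M5 (chromosome 17, 36984061 to 36989537), Gabbr1 (37045966 to 37075067) and H2-M2 (37480851 to 37483552) lie within 1 stretch of GRCm38 and all rose. H2-M5 was at 42.1, 43.6 and 40.7 CPM in male RD, 80.8, 73.1 and 87.5 in male HFD, 19.5, 6.64 and 19.6 in female RD and 28.7, 26.9 and 32.7 in female HFD mice, without overlap in either sex. Gabbr1 was at 22.8, 20.3 and 19.2 against 53.8, 33.4 and 45.7 CPM in males and at 28.4, 31.6 and 33.3 against 46.4, 37.6 and 48.7 in females, also without overlap. Piezo1 (chromosome 8, 122481698 to 122551329) and Aprt (122574635 to 122576909) are neighbors as well and were both called lower. The Piezo1 call was kept in only 4 of 23 alternative settings and the Aprt call in 10 of 25. These positions were looked up after the values were seen, and no test of clustering was made.

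Of 14 costimulation and checkpoint genes tested between the sexes, 4 were higher and 7 lower in females (median log2 difference -0.26, median gene span 22.6 kb), beside 31.8% and 30.1% of all genes. Cd40, Cd83 and Cd24a were among the lower. Cd86 and Cd80, ligands of CD28 on T cells, were among the higher. Cd86 was at 340 to 405 CPM in males and 1174 to 1755 in females, and Cd80 at 91.4 to 132 against 136 to 337. By diet neither passed in edgeR's quasi-likelihood test. Female Cd86 was at 1189, 1174 and 1429 CPM on RD and 1598, 1755 and 1571 on HFD, without overlap, with an edgeR adjusted p of 0.142. In females 1451 of 7889 genes had diets without overlap. Fabp5, a fatty acid carrier, stood at 739 CPM in female RD 2 against 90.7 and 116 in the other female RD mice and 92.0 to 102 in female HFD mice.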
